A study of Mus musculus with 2 samples.

Results

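The 9 genes described here encode the core machinery that divides and joins mitochondria: Mfn1, Mfn2 and Opa1 on the fusion side, the protease gene Oma1 that acts on OPA1, and Dnm1l, Mff, Mief1, Mief2 and Fis1 on the fission side. They were taken by name from the annotated genes of both deposited transcript tables, and all 9 had reads, among 14900 annotated genes with reads in either library. The tissue was gastrocnemius, the large calf muscle, of male B6CASTF1/J mice, a first-generation cross of the C57BL/6J and CAST/EiJ strains, aged 18 to 20 months. There was 1 group, of 2 libraries labelled biological replicate 2 and biological replicate 1, each made from 2 µg of total RNA and sequenced as long cDNA reads, which can carry a transcript from end to end. Reads of both parental alleles are pooled, since none was assigned to a strain, and the labels describe both libraries by the same pair of animal codes under separate biosamples. Whether a library stands for 1 mouse or for pooled tissue is not given in the sources used here, so the SD over the libraries may be technical spread. No second condition was studied, so the questions were how much of each gene this muscle holds, in which splice forms, and how far the libraries differed.

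Mitochondria in muscle form a network whose shape is set by opposing membrane events. Fission is carried out by the dynamin-related GTPase DRP1, encoded by Dnm1l, which is drawn from the cytosol to the outer membrane by the adaptors MFF, MID49 (Mief2) and MID51 (Mief1), with FIS1 as a further tail-anchored protein of that membrane. Fusion joins the outer membranes through the mitofusins MFN1 and MFN2 and the inner membranes through OPA1, whose long membrane-anchored forms are cut to short forms by the proteases OMA1 and YME1L1.

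Alternative splicing of Dnm1l, Mff and Opa1 changes the proteins they encode, and the exons that carried the variation in these reads are shown as GENCODE M21 gives them in its transcripts on mm10. In Dnm1l (minus strand) the 39-nt exon at chr16:16342697-16342735, often called exon 3, inserts 13 codons into the GTPase domain. The 78-nt exon at chr16:16318764-16318841 and the 33-nt exon at chr16:16318445-16318477 insert 26 and 11 codons into the variable domain, and all 3 keep the reading frame.
Dnm1l 39-nt exon: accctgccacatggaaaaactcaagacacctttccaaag
Dnm1l 78-nt exon: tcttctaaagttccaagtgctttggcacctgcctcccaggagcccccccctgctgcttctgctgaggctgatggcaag
Dnm1l 33-nt exon: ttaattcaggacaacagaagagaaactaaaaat

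Mff (plus strand) varied over 4 neighbouring coding exons. The 92-nt exon at chr1:82735416-82735507 has a second splice acceptor right after its first 3 bases, in capitals here, which leaves 89 nt. The 75-nt exon lies at chr1:82737013-82737087, the 159-nt exon at chr1:82741818-82741976 and the 33-nt exon at chr1:82745524-82745556. Capitals in the 159-nt exon mark its last 42 bases, which some reads used alone from an acceptor absent from the annotation, and the bases just before them are ag, the usual end of an intron.
Mff 92-nt exon: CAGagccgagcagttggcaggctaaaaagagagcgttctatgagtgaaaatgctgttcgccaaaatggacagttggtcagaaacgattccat
Mff 75-nt exon: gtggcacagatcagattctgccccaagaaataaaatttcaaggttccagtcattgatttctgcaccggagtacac
Mff 159-nt exon: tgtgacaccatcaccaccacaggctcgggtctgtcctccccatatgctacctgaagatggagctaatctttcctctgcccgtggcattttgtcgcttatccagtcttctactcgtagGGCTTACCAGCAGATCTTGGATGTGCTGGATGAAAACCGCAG
Mff 33-nt exon: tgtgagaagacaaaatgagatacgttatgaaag

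Opa1 (plus strand) has an alternative 54-nt exon at chr16:29588823-29588876, which matches in place and length the exon called 4b in human OPA1, and an alternative 111-nt exon at chr16:29597586-29597696, which matches the human exon 5b. The 111-nt exon encodes a site at which YME1L1 cuts OPA1, while the OMA1 site is encoded outside it, in the exon between the alternative ones.
Opa1 54-nt exon: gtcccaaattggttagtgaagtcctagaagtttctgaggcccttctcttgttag
Opa1 111-nt exon: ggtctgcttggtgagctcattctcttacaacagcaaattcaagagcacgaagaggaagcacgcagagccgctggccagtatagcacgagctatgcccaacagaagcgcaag

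Replicate 2 held 1173233 reads and replicate 1 held 1509380. Levels are reads per 1000000 reads of the library (CPM) and are not divided by transcript length, because a read stands for 1 sequenced cDNA molecule. That molecule may be a copy of another, and the part of length in the levels was not tested. Read counts of the libraries differed beyond counting noise (chi-square over degrees of freedom, 13.3), and they were treated as separate samples. Skeletal muscle markers were all present (8 of 8 in each library, summing to 133748 CPM in replicate 2 against 145309 CPM in replicate 1), while the mix of myosin genes differed. Myh4 was the most read listed myosin gene in both libraries, with 29395 CPM in replicate 2 against 22961 CPM in replicate 1. The slow myosin gene Myh7 had 2326 CPM in replicate 2 against 78.8 CPM in replicate 1. The type 2A gene Myh2 had 2298 against 148 CPM, and Myh1 5679 against 1112 CPM. Ttn was also higher in replicate 2, and Acta1, Ckm and Tnnt3 were lower there. Endothelial markers (4 of 4 with reads in each library) summed to 86.1 CPM in replicate 2 against 33.1 CPM in replicate 1, smooth muscle and pericyte markers (4 of 4) to 381 and 201 CPM, and Schwann cell markers (3 of 3) to 52.0 and 24.5 CPM. Blood markers (4 of 4) summed to 124 CPM in replicate 2 against 205 CPM in replicate 1, and immune markers to 14.5 CPM (2 of 4 with reads) and 35.1 CPM (4 of 4). Most of the immune sum was Cd74, at 13.6 CPM in replicate 2 and 32.5 CPM in replicate 1. Fibroblast, tendon and adipocyte lists were each within 1.25-fold between the libraries. Satellite cell markers (2 of 3 with reads in each library) summed to 19.6 CPM in replicate 2 against 29.2 CPM in replicate 1. Most of that sum was Cdh15, and Calcr had no read in either library. ERCC spike-in RNAs took 0.595% of reads in replicate 2 and 2.74% in replicate 1. In whole tissue, fewer cells of a type and less RNA per cell cannot be told apart, and the part of these differences in the ratios below was not tested.

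Mfn2 was by far the most read gene of the machinery. It lies at chr4:147873599-147904704 on the minus strand and had 1649 reads in replicate 2 and 1074 in replicate 1, or 1406 and 712 CPM (1059 ± 491 CPM, SD, n = 2). Among all genes it ranked 48 in replicate 2 and 90 in replicate 1, above 99.7% and 99.4% of the genes with reads. Mfn2 alone gave 62.4% of the reads of the 9 genes in replicate 2 and 54.6% in replicate 1. Its paralog Mfn1 (chr3:32529465-32579239, plus strand) had 255 reads in replicate 2 and 191 in replicate 1, or 217 and 127 CPM (172 ± 64.2 CPM). Mfn2 therefore made up 86.6% of mitofusin reads in replicate 2 (exact 95% Clopper-Pearson interval 85.0% to 88.1%) and 84.9% in replicate 1 (82.8% to 86.8%), shares whose intervals overlap.

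Opa1, the inner membrane fusion GTPase (chr16:29579334-29654884, plus strand), had 193 reads in replicate 2 and 107 in replicate 1, or 165 and 70.9 CPM (118 ± 66.2 CPM). Replicate 2 was the higher library for all 3 fusion genes, as it was for 8 of the 9 genes and 61.3% of all tested genes. Oma1 (chr4:103313812-103371868, plus strand), which encodes the stress-activated protease that cuts OPA1, was among the least read members, with 44 reads in replicate 2 and 40 in replicate 1 (37.5 and 26.5 CPM, 32.0 ± 7.78 CPM).

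On the fission side Mff (chr1:82724890-82752394, plus strand) was read most, with 152 reads in replicate 2 and 187 in replicate 1, which as levels were nearly equal at 129.6 and 123.9 CPM (127 ± 4.01 CPM). The adaptor gene Mief2 (chr11:60728398-60732951, plus strand) had 146 reads in replicate 2 and 120 in replicate 1, or 124 and 79.5 CPM (102 ± 31.8 CPM). Its paralog Mief1 (chr15:80234018-80253371, plus strand) had 45 and 28 reads, or 38.4 CPM in replicate 2 and 18.6 CPM in replicate 1 (28.5 ± 14.0 CPM). Mief2 thus held 76.4% of the reads of the pair in replicate 2 (69.8% to 82.3%) and 81.1% in replicate 1 (73.8% to 87.0%). Reads of the MID49 gene outnumbered those of the MID51 gene in both libraries. The most read transcript has 2522 nt in Mief2 and 5148 nt in Mief1, and the part of length in this share was not tested. Dnm1l, the GTPase that all these adaptors recruit (chr16:16312230-16358959, minus strand), had only 91 reads in replicate 2 and 81 in replicate 1, or 77.6 and 53.7 CPM (65.6 ± 16.9 CPM). Fis1 (chr5:136953275-136966234, plus strand) ran the other way from the rest, with 66 reads in replicate 2 and 138 in replicate 1, or 56.3 and 91.4 CPM (73.8 ± 24.9 CPM).

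Ordered by mean level the genes ran Mfn2, Mfn1, Mff, Opa1, Mief2, Fis1, Dnm1l, Oma1, Mief1. In that order the libraries of neighbours did not overlap at 2 steps only, between Mfn2 and Mfn1 and between Dnm1l and Oma1, and at the other 6 steps neighbours overlapped. The 3 fusion GTPases together held 79.4% of the members' 2641 reads in replicate 2 (77.8% to 80.9%) and 69.8% of 1966 in replicate 1 (67.7% to 71.8%), against 18.9% and 28.2% for the 5 fission genes. Mfn2 alone held 62.4% of the members' reads in replicate 2 and 54.6% in replicate 1, so it made up most of the fusion share. Without Mfn2, the fusion genes had fewer reads than the fission genes in both libraries. The intervals of the fusion and fission shares do not overlap between libraries. They cover the sampling of reads only, and copies of 1 molecule cannot be told from separate molecules. The part of transcript length in these shares was not tested.

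**Figure D1:**
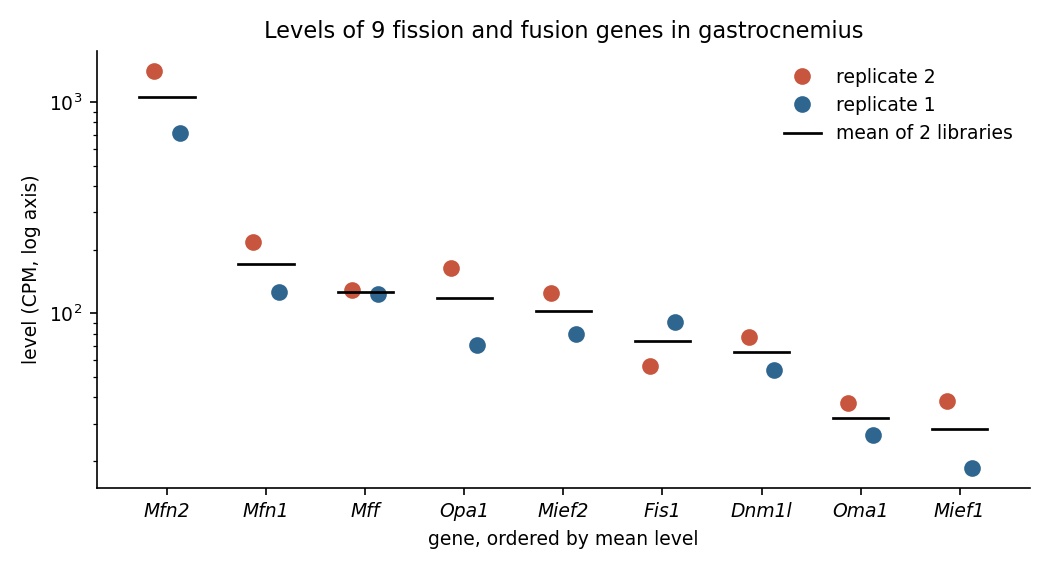
Level of each gene in CPM (log axis), 1 point per library with replicate 2 on the left and replicate 1 on the right of each pair, and a bar at the mean. Mfn2 stands apart at 1406 and 712 CPM, Mff has nearly equal levels, and Fis1 is the only gene whose replicate 2 level lies below that of replicate 1.

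The libraries were compared gene by gene by Fisher's exact test (two-sided), which set a gene's reads against the rest of its library, adjusted by Benjamini-Hochberg over 9032 genes. The test compares these libraries and not conditions. A call needed an adjusted p below 0.05 and a ratio of at least 2-fold on the log2(CPM + 1) scale, replicate 2 over replicate 1, and 10.3% of the tested genes had one (8.24% higher and 2.04% lower in replicate 2). Of the 9 genes 2 were called, both higher in replicate 2. Opa1 had a log2 ratio of 1.20 (adjusted p = 3.51e-11, Fisher's exact test) and Mief1 one of 1.01 (adjusted p = 0.0182, Fisher's exact test), so Mief1 passed the 2-fold minimum only narrowly. The call of Mief1 was lost under TMM scaling (0.82), and that of Opa1 when only annotated transcripts were counted (0.58).

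Mfn2 just missed it, at 0.98 or 1.98-fold, with the lowest p of the 9 (adjusted p = 3.08e-67, Fisher's exact test). Mfn1 (0.78), Mief2 (0.64) and Fis1 (-0.69) also had an adjusted p below 0.05 without reaching 2-fold (adjusted p = 3.24e-07, 0.00286 and 0.00833, Fisher's exact test). In all, 6 of the 9 genes passed on the adjusted p alone, as did 21.4% of all tested genes. Dnm1l (0.52), Oma1 (0.49) and Mff (0.06) did not (adjusted p = 0.0717, 0.303 and 0.877, Fisher's exact test). Dnm1l itself therefore had no call, and neither did Mff, whose ratio was the nearest to 0 of the 9 and took the opposite sign, -0.13, under TMM scaling.

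The median log2 ratio was 0.64 over the 9 genes and 0.19 over all tested genes, and 8 of the 9 were above 0, as were 61.3% of all tested genes. Ratios rose with transcript length across all genes, with a median of -0.54 where the most read transcript had at most 500 nt, 0.13 for 2000 to 3000 nt and 0.69 for over 5000 nt. The genes of fission and fusion differ widely in length, from 786 nt for Fis1 and 1894 nt for Mff to 4341 nt for Mfn2, 5148 nt for Mief1 and 6230 nt for Opa1. Each gene's ratio was therefore also taken relative to the median of genes of like length. Opa1 was then at 0.52 and Mfn2 at 0.48, with adjusted p = 0.0223 and 5.85e-16 (Fisher's exact test). Mfn1 was at 0.20, Mief2 at 0.48, Mief1 at 0.39 and Fis1 at -0.29, with adjusted p = 0.455, 0.0576, 0.573 and 0.509 (Fisher's exact test). Of the 6 genes that had passed on the adjusted p alone, Opa1 and Mfn2 thus still did, and none of the 9 genes was called at 2-fold.

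**Figure D2:**
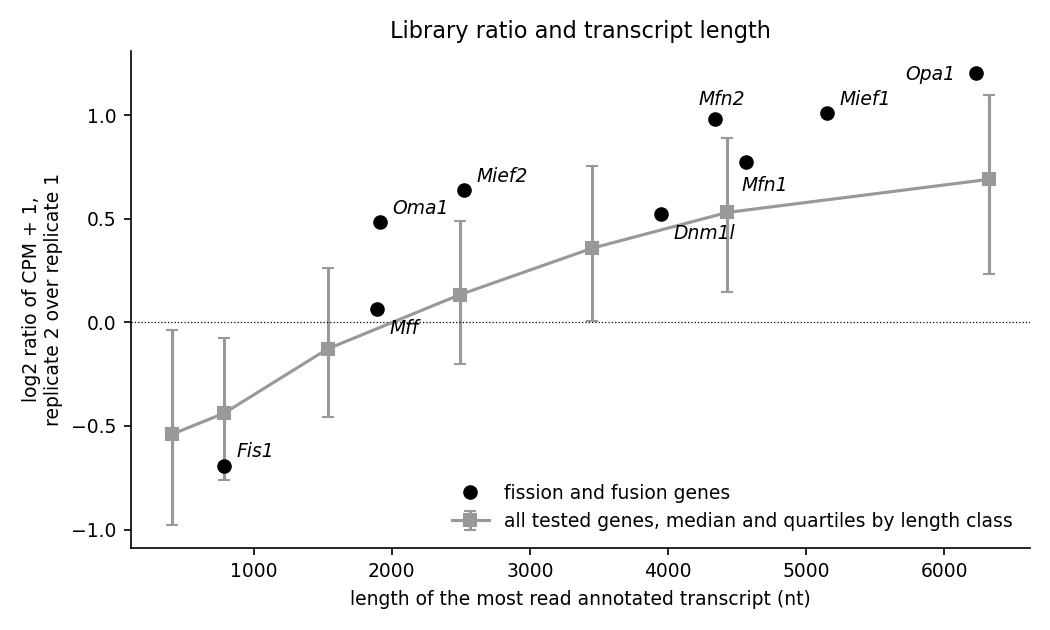
Log2 ratio of CPM + 1, replicate 2 over replicate 1, against the length in nt of each gene's most read annotated transcript. Grey squares with bars are the median and quartiles of all tested genes by length class, black points the fission and fusion genes: Fis1, at 786 nt, is the only one below 0, and Opa1, at 6230 nt, is the highest.

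Each read falls into a class: an annotated transcript, an unannotated combination of known splice sites, a model with an unannotated splice site, an incomplete match, or a genomic model without the expected splicing. Fis1, Oma1 and Mfn1 were read mostly as annotated transcripts. In replicate 2 this class took 86.4% of Fis1 reads, 77.3% of Oma1 reads and 83.9% of Mfn1 reads, and in replicate 1 it took 94.2%, 90.0% and 77.0%. Mff was at the other end, with 24.3% annotated reads in replicate 2 and 31.0% in replicate 1. Most of its reads, 67.1% in replicate 2 and 62.6% in replicate 1, joined known splice sites in a combination that the annotation lacks, a class that took 5.10% and 4.19% of the reads of all annotated genes. Opa1 lay between, with 52.3% of such reads in replicate 2 (101 of 193) and 36.4% in replicate 1 (39 of 107), and Dnm1l followed with 26.4% and 25.9%.

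**Figure D3:**
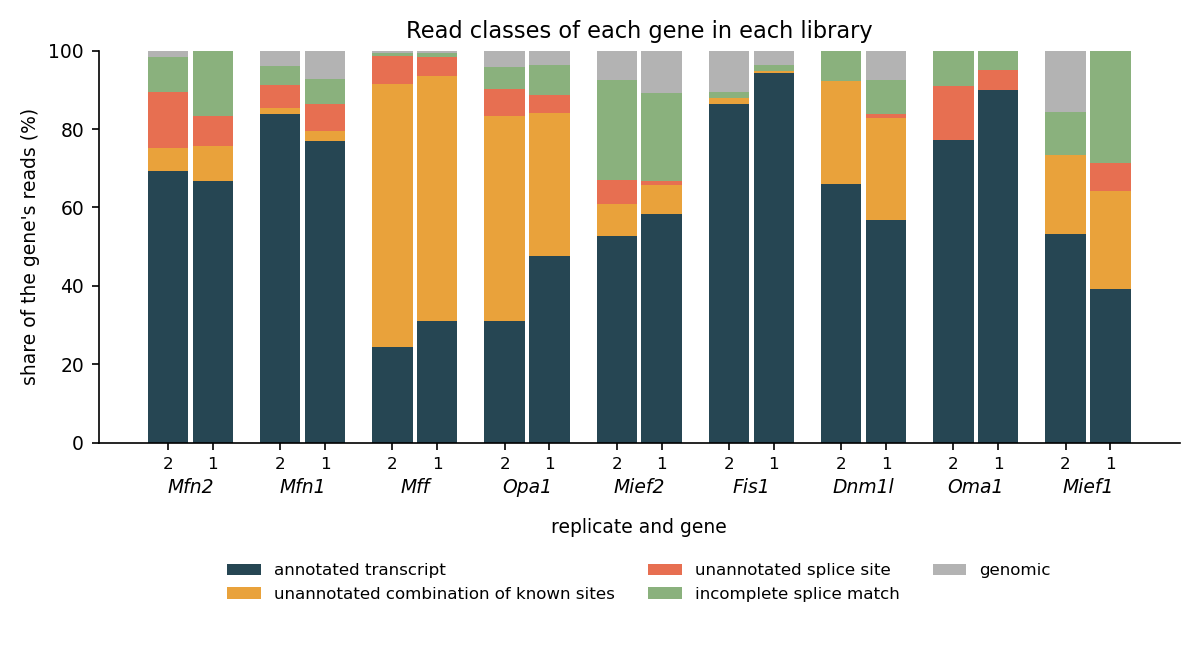
Share of each gene's reads in each of the 5 read classes, in percent, with replicate 2 on the left and replicate 1 on the right for each gene, ordered by mean level. Unannotated combinations of known sites (orange) dominate Mff in both libraries and are also large in Opa1, while Fis1 is nearly all annotated transcript.

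Mfn2-201, the main annotated Mfn2 transcript, took 67.8% of Mfn2 reads in replicate 2 and 65.5% in replicate 1 (66.7% ± 1.59, SD, n = 2). No other Mfn2 model reached 5% over the libraries together. Of 19 internal exon regions of Mfn2, 15 had a single form in at least 99% of reads, and the variation with most reads lay in the 5′ untranslated region. There an 83-nt exon was used in full by 89.7% of 1540 reads in replicate 2 and 90.0% of 940 in replicate 1. A 66-nt form, from an acceptor 17 nt downstream that the annotation lacks, took 8.31% in replicate 2 (128 reads) and 7.87% in replicate 1 (74 reads). In the preceding 143-nt exon an acceptor 3 nt downstream, also unannotated, was used by 6.12% of reads in replicate 2 and 6.15% in replicate 1. These minor forms came at nearly the same share in both libraries although the gene's level differed.

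Mfn1 was more uniform. Mfn1-201 took 83.1% of Mfn1 reads in replicate 2 and 75.9% in replicate 1 (79.5% ± 5.11), and 15 of 16 internal exon regions had 1 form in at least 99% of reads. Oma1-201 took 77.3% of Oma1 reads in replicate 2 and 90.0% in replicate 1 (83.6% ± 9.00), and all 7 of its internal exon regions were read in a single form. Fis1-201 took 84.8% of Fis1 reads in replicate 2 and 92.8% in replicate 1 (88.8% ± 5.59), with 3 of 3 internal exon regions in 1 form in at least 99% of reads. For these genes the remainder was mostly incomplete, genomic or rare models.

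Opa1 was split among 4 models that differ by the exons shown above. Opa1-201 is also shorter, at 3230 nt against 6230 nt for Opa1-206. A chain with the 111-nt exon and without the 54-nt exon, not annotated in full, took 33.7% of Opa1 reads in replicate 2 and 27.1% in replicate 1 (30.4% ± 4.65). Opa1-206, which has neither exon, took 19.2% in replicate 2 and 35.5% in replicate 1 (27.3% ± 11.6), and Opa1-201, with the 54-nt exon only, 11.9% and 12.1%. A chain with both exons, again not annotated in full, took 17.1% in replicate 2 and 9.35% in replicate 1. The most read Opa1 model was thus an unannotated chain in replicate 2 and Opa1-206 in replicate 1.

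Over all reads that held it with its exact ends or skipped it, the 111-nt exon that encodes the YME1L1 site was included in 106 of 174 reads in replicate 2 and 43 of 97 in replicate 1. These are 60.9% (53.2% to 68.2%) and 44.3% (34.2% to 54.8%), higher in replicate 2 by 16.6 points, a difference that did not survive adjustment over all exons (p = 0.0108, adjusted p = 0.355, Fisher's exact test). The 54-nt exon was included in 61 of 174 reads in replicate 2 and 24 of 96 in replicate 1, or 35.1% and 25.0% (adjusted p = 0.794, Fisher's exact test). The 108-nt exon before it was present in all 175 and all 98 covering reads. Between the alternative exons, the exon that encodes the OMA1 site was never skipped: its 68-nt form took 171 of 176 reads in replicate 2 and 98 of 98 in replicate 1, and a 72-nt form the other 5.

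Single reads that spanned both Opa1 exons numbered 176 in replicate 2 and 98 in replicate 1 and held all 4 combinations. The 111-nt exon alone was in 39.8% of them in replicate 2 and 31.6% in replicate 1, and neither exon in 23.3% and 41.8%. Both exons were in 20.5% of spanning reads in replicate 2 and 10.2% in replicate 1, and the 54-nt exon alone in 14.2% and 13.3%. Inclusion of the 111-nt exon was similar with and without the 54-nt exon, at 59.0% (36 of 61 reads) against 63.1% (70 of 111) in replicate 2 and 43.5% (10 of 23) against 43.1% (31 of 72) in replicate 1.

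Dnm1l was read chiefly without any of its 3 alternative exons. Dnm1l-201, which lacks them, took 53.8% of Dnm1l reads in replicate 2 and 39.5% in replicate 1 (46.7% ± 10.1), and Dnm1l-202, which adds the 39-nt exon, 11.0% and 13.6%. A chain with the 78-nt exon alone, which the annotation lacks, took 8.79% in replicate 2 and 7.41% in replicate 1. Per exon, the 39-nt exon of the GTPase domain was included in 19 of 83 reads in replicate 2 and 13 of 67 in replicate 1, or 22.9% (14.4% to 33.4%) and 19.4% (10.8% to 30.9%). In the variable domain the 78-nt exon was included in 18.8% of 85 reads in replicate 2 and 18.8% of 69 in replicate 1, and the 33-nt exon in 7.06% and 10.1%. For each of the 3 exons the intervals of the libraries overlap.

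Of the reads that spanned all 3 Dnm1l exons, 63.9% of 83 in replicate 2 and 60.6% of 66 in replicate 1 carried none. The 39-nt exon alone was in 15.7% and 16.7%, the 78-nt exon alone in 10.8% and 9.09%, and the 78-nt with the 33-nt exon in 1.20% and 7.58%. All 8 possible combinations occurred, 7 of them in both libraries, most with few reads. The annotation gives the 78-nt exon only together with the 33-nt exon, in Dnm1l-203, yet in 13 of 16 reads in replicate 2 and 8 of 13 in replicate 1 the 78-nt exon was spliced past the 33-nt exon to the next one. In replicate 2 the 33-nt exon was in 3 of 16 reads with the 78-nt exon and 3 of 69 without it. In replicate 1 it was in 5 of 13 and 2 of 56. Near the start of the coding region a further choice of splice donor gave a 148-nt exon in 94.0% of 83 reads in replicate 2 and 89.2% of 65 in replicate 1, with an annotated 166-nt form in 6.02% and 9.23%.

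Mff had no dominant transcript. Its most read model over the libraries together, an unannotated chain with the 75-nt and 159-nt exons, took 24.3% of Mff reads in replicate 2 and 13.4% in replicate 1 (18.9% ± 7.76). Mff-202, with the 159-nt exon, took 9.21% and 15.0%, so it was the most read model in replicate 1, and Mff-212, with the 75-nt and 159-nt exons and a 172-nt noncoding exon, 9.87% and 10.2%. Counted with annotated transcripts only, the mean Mff level would be 35.0 CPM in place of 127 CPM, because most of its reads are of unannotated chains. Only 3 of its 10 internal exon regions had 1 form in at least 99% of reads.

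The choices in Mff ran along the coding region. The 89-nt form of the first variable exon, without the capital letters above, took 77.5% of 151 reads in replicate 2 and 68.8% of 186 in replicate 1, and the 92-nt form 20.5% and 30.1%. The 75-nt exon was included in 89 of 151 reads in replicate 2 and 80 of 186 in replicate 1, or 58.9% (50.7% to 66.9%) and 43.0% (35.8% to 50.5%). At 15.9 points higher in replicate 2 this was the lowest p of any exon of the 9 genes, and it too missed the threshold after adjustment (p = 0.00437, adjusted p = 0.203, Fisher's exact test). The 159-nt exon was used in full by 83.4% of reads in replicate 2 against 86.6% in replicate 1. Its unannotated 42-nt form, with 9 reads in each library, took 5.96% and 4.84%. Another 9.93% of reads in replicate 2 and 8.06% in replicate 1 skipped it. The 33-nt exon was included in 19.2% and 23.1%, and the 172-nt noncoding exon in 32.9% and 33.2%.

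**Figure D4:**
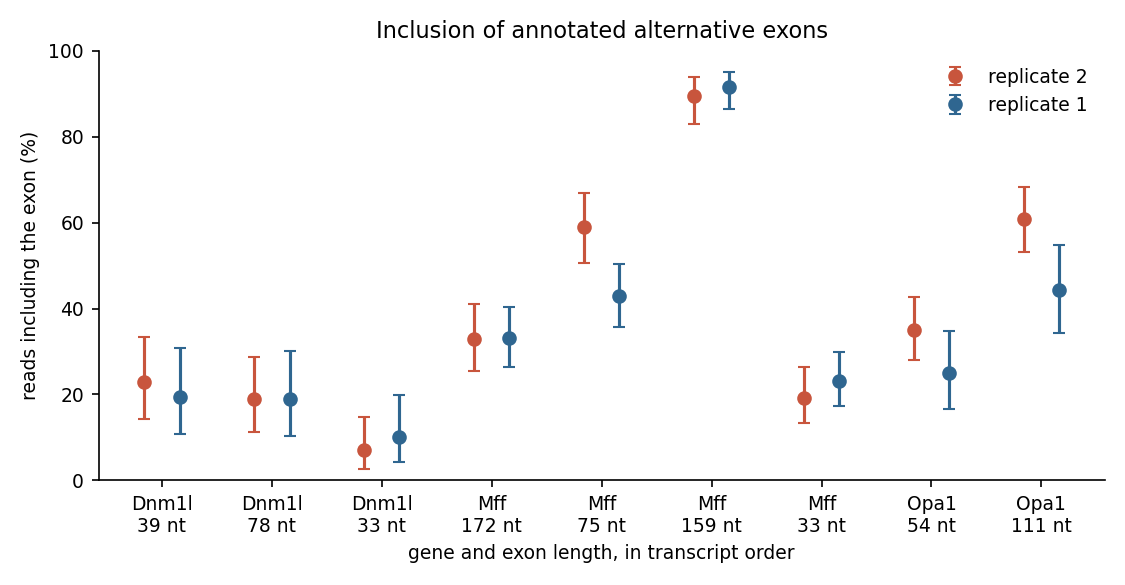
Inclusion in percent of each annotated alternative exon of Dnm1l, Mff and Opa1, with exact 95% intervals, replicate 2 on the left and replicate 1 on the right. Shares are of reads that hold the exon with its exact ends or skip it, without reads of another boundary. The 75-nt exon of Mff (58.9% and 43.0%) and the 111-nt exon of Opa1 (60.9% and 44.3%) show the widest gaps between libraries.

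Single reads showed which Mff exons came together. The 75-nt exon came with the full 159-nt exon in 84 of 84 reads in replicate 2 and 78 of 78 in replicate 1, in reads where the 159-nt exon was either used in full or skipped. Without the 75-nt exon the 159-nt exon was used in 42 of 57 reads in replicate 2 (73.7%) and 83 of 98 in replicate 1 (84.7%). The 33-nt exon was in 21.3% of reads with the 75-nt exon and 16.1% of those without it in replicate 2, and in 25.0% and 21.7% in replicate 1. Reads with both exons and no 33-nt exon made up 43.7% of 151 spanning reads in replicate 2 and 31.7% of 186 in replicate 1. Reads with the 159-nt exon alone were 22.5% and 33.3%, those with all 3 exons 11.9% and 10.2%, and those with none of them 9.27% and 8.06%. Of 8 possible combinations 6 were read.

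**Figure D5:**
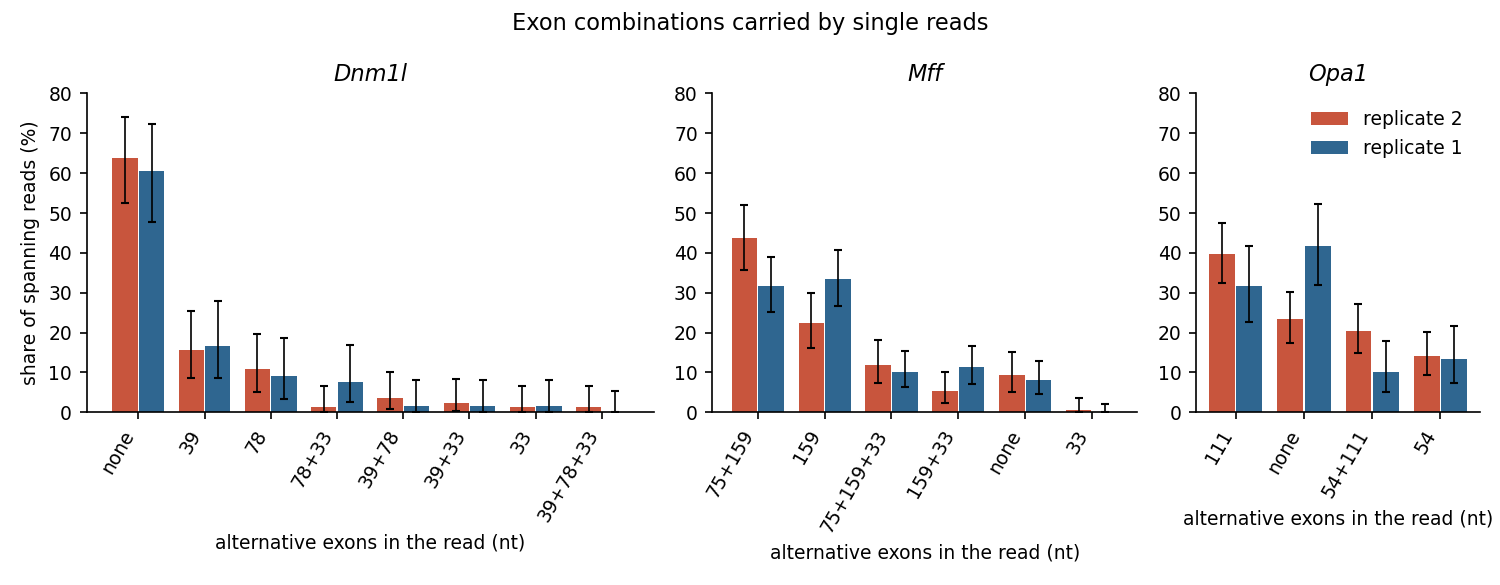
Share of spanning reads, in percent, that carry each combination of alternative exons (named by length in nt) in Dnm1l, Mff and Opa1, with exact 95% intervals, replicate 2 on the left and replicate 1 on the right. In Dnm1l most reads carry none of the exons (63.9% and 60.6%), in Mff reads with the 75-nt and 159-nt exons are 43.7% and 31.7% and those with the 159-nt exon alone 22.5% and 33.3%, and in Opa1 the reads with neither exon are 23.3% and 41.8%.

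The adaptor genes Mief1 and Mief2 had fewer reads to resolve. Mief1-201 took 44.4% of Mief1 reads in replicate 2 and 32.1% in replicate 1. Unannotated single-exon models took 15.6% and 17.9%, and an unannotated chain of known splice sites 13.3% and 10.7%. Mief1-203, whose 177-nt form of the last variable exon replaces one of 263 nt, took 8.89% and 7.14%. Across models the 263-nt form was used by 84.2% of 38 reads in replicate 2 and 87.0% of 23 in replicate 1. A noncoding 99-nt exon was included in 5 of 36 reads in replicate 2 and 2 of 19 in replicate 1. In Mief2, Mief2-201 took 47.3% of reads in replicate 2 and 54.2% in replicate 1 (50.7% ± 4.88). An incomplete match took 14.4% and 15.0%. The exon pair of Mief2-201, of 153 and 163 nt, was used by 76.5% of 98 covering reads in replicate 2 and 82.5% of 80 in replicate 1. An unspliced 510-nt exon, annotated in Mief2-203, took 8.16% and 6.25%, and a pair whose second exon has an unannotated 210-nt form 5.10% and 8.75%.

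No tested splicing difference between the libraries passed the threshold in these genes. The tests covered the share of the main annotated transcript and the inclusion of an exon against its skipping. The choice between boundaries of an exon, as between the 89-nt and 92-nt forms in Mff, was not tested. The share of the most read annotated transcript was called in 0 of the 9, against 2.36% of 4574 genes tested, and 1 of the 9 had an unadjusted p below 0.05, as did 9.71% of all genes tested. That gene was Opa1 (Opa1-206, p = 0.00219, adjusted p = 0.0790, Fisher's exact test). Exon inclusion was called in 0 of 14 exons tested, against 1.18% of 3301 exons of all genes, and 2 of the 14, the 75-nt exon of Mff and the 111-nt exon of Opa1, had an unadjusted p below 0.05, as did 7.48% of all exons tested.

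The wider set of genes that act on mitochondrial shape was read as a list of 43, with proteases, adaptors, motor linkers, mitophagy genes and regulators of DRP1. Reads were found for 40, and 38 were tested. Of these 2 were higher in replicate 2, 0 were lower and 36 had no call, where 8.24% of all tested genes were higher and 2.04% lower. The median log2 ratio was 0.28, beside 0.19 for all tested genes. Akap1, which encodes an outer membrane anchor of protein kinase A, had 162 reads in replicate 2 against 95 in replicate 1, a log2 ratio of 1.12 with an adjusted p of 1.83e-08 by Fisher's exact test. Trak2, an adaptor between mitochondria and kinesin motors, had 96 reads in replicate 2 against 46 in replicate 1, a log2 ratio of 1.40 with an adjusted p of 2.90e-07 by the same exact test. TMM scaling and DESeq2 size factors moved all ratios by -0.20, which puts Akap1 below the 2-fold minimum and leaves Trak2 above it. The most read transcript has 3758 nt in Akap1 and 6189 nt in Trak2. Over all tested genes the median log2 ratio was 0.36 for 3000 to 4000 nt and 0.69 for over 5000 nt.

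The most read of the list was Pink1, the kinase that marks damaged mitochondria, at 1637 CPM in replicate 2 against 1304 CPM in replicate 1 (1470 ± 235 CPM, SD, n = 2), above Mfn2 in both libraries. It was followed by the mitophagy receptor gene Bnip3 with 428 CPM in replicate 2 against 301 CPM in replicate 1. Next came Ppp3ca, a catalytic subunit of calcineurin, which dephosphorylates DRP1, with 361 and 314 CPM, the cristae-junction gene Chchd3 with 276.2 and 276.9 CPM, and Mtfr1l with 266 and 282 CPM. Yme1l1, whose protease cuts the site in the 111-nt exon of Opa1, had 46.9 CPM in replicate 2 against 44.4 CPM in replicate 1, above Oma1 in both libraries. It was singled out from the list after its values were seen.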

How the data were processed

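Long-read cDNA libraries of gastrocnemius from 1 group of 2 mouse samples were analysed, grouped and numbered by the labels' replicate numbers. Each library came with a deposited table of raw read counts by transcript model, which lists no model without reads. Per the description files deposited beside them, the authors made these counts from reads aligned to mm10 and the M21 release of GENCODE. Models carry names from TALON, per the source field of the annotation files. Aligner, software versions, model filters, and whether the libraries shared a run were not given in the sources used here. The labels give both libraries the same pair of animal codes, and whether the samples came from separate mice is not stated. The p-values take reads as the units. They set the difference between these libraries against the sampling of reads, and measure no spread between libraries or mice.

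Here the counts were joined to the exon coordinates of the same library's annotation, and models were matched between libraries by their introns. Counts of all read classes were summed per gene, and CPM is per 1000000 reads of the table, spike-ins included. Genes needed 10 reads in the libraries together to be tested, log2 ratios used a pseudocount of 1 CPM, which understates the ratio of low genes, and transcript shares needed 20 reads in each library. An exon counted as included when both its exact ends were internal to a read and as skipped when an intron spanned it, with at least 10 such reads in each library and pooled inclusion from 5% to 95%. Reads with another boundary of the exon were left out of inclusion and are counted in the shares of forms. A form is a set of exact boundaries in a stretch covered by exons. Models whose shares are given had at least 5% of a gene's reads and 3 reads, and not every such model is given. Ratios relative to length used the median of 20 length classes. A count of 0 allows up to 3 reads, or 2.56 CPM in replicate 2 and 1.99 CPM in replicate 1.

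The 9 members, the related genes, the markers and the tests were chosen with earlier results of these data known, and support nothing by their choice. Named are the 9 members, their most read models and variable exons, and of the related list the called genes and the 5 most read, besides Yme1l1, which was chosen after its values were seen. Alternatives changed the scaling (TMM from edgeR 4.0.16, size factors from DESeq2 1.42.0, R 4.3.3), the length centring, the read and fold minimums, the pseudocount, the read classes, the depth and the library left out. The scripts were tested on simulated counts with numpy 2.4.6, pandas 2.3.3, scipy 1.17.1 and matplotlib 3.10.9 under Python 3.11.15.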

Additional observations from a re-analysis of the deposited data

How the results depend on the processing

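No paired analysis was possible because there was only 1 group. Of the 9 genes 2 were called (Opa1 and Mief1) as reported, likewise after thinning the deeper library or dropping the read minimum. The count was 1 (Opa1) under TMM scaling, 1 under DESeq2 size factors and 1 with a pseudocount of 5 CPM, 0 after centring on transcript length, and 6 with no fold minimum. It was 2 (Mfn2 and Mief1) with annotated transcripts only, where the ratio of Opa1 was 0.58, and 3 (Mfn2, Opa1 and Mief1) without incomplete and genomic reads. Mief1 and Mief2 had an adjusted p of 0.0664 and 0.0585 under TMM and 0.0828 and 0.0666 under DESeq2 size factors (Fisher's exact test). The log2 ratio of Mff, 0.06, was -0.13 under TMM, -0.14 under DESeq2 size factors, -0.28 with annotated transcripts only and -0.037 in the thinned library; these scalings moved all ratios by -0.20. The other 8 genes kept the sign of their ratio under every alternative. Over all genes, calls numbered 928 (80.2% higher in replicate 2), 822 under TMM (54.3% higher), 826 under DESeq2 size factors (53.5%), 404 after centring on length (62.6%) and 1932 with no fold minimum. Calls of transcript share numbered 108, 19 with annotated transcripts only and 35 without incomplete and genomic reads, and calls of exon inclusion 39 of 3301 exons, 10 of 621 with annotated transcripts only, 28 of 3194 without incomplete reads and 46 of 1937 with 20 reads in each library. Mean levels with annotated transcripts only were lower by more than the spread of the libraries for Mff (35.0 CPM), Opa1 (42.5), Dnm1l (40.8), Mief2 (56.0) and Mief1 (13.9). With 2 libraries, 1 ratio per gene and 28 to 91 reads for Mief1, Oma1 and Dnm1l, exon shares of these genes have wide intervals. The cause of these changes was not tested.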
